A study of Mus musculus with 6 samples.

Results

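The genes of mitochondrial fusion and fission described here are 10 genes taken by name from the tables of counts and FPKM (reads scaled to gene length and to the library total), out of 23867 gene symbols listed and 15028 that passed a filter on low counts. All 10 passed that filter. They were measured by bulk RNA sequencing of mouse chondrocytes, the resident cells of cartilage, in 3 knockout libraries (CRE1, CRE2 and CRE3; genotype label MFN2Col2a1-/-) and 3 wild-type libraries (WT1, WT2 and WT3; genotype label MFN2wt). The knockout label pairs Mfn2 with Col2a1, a cartilage collagen gene, and the knockout columns are headed CRE; no source used here explains either further. The labels state no floxed exons, strain, age, joint or culture condition, nor whether each library is a separate animal or a pool, so a p-value here covers the spread among these 6 libraries and may be technical.

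Mitochondria in most cells form a network that is joined and divided all the time. The mitofusins Mfn1 and Mfn2 sit in the outer membrane and join outer membranes, and Opa1 joins inner membranes and shapes the cristae. The proteases Oma1 and Yme1l1 cleave Opa1 protein. Division needs the dynamin-like GTPase DRP1, encoded by Dnm1l, which is drawn from the cytosol to the outer membrane by adaptors (Mff, Mief1, Mief2 and, in yeast, the homologue of Fis1). Mfn2 also tethers mitochondria to the endoplasmic reticulum, the contact named in the title of the series. The comparison asks whether the partner genes moved in cells with less Mfn2 RNA.

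Levels below are CPM (counts scaled to a common library total) adjusted by TMM factors, which set the bulk of genes equal between libraries. Fold changes are knockout over wild type from edgeR's quasi-likelihood test on all 15028 genes, and genes with an adjusted p (Benjamini-Hochberg) under 0.05 count as called. By that rule 62.7% of all genes tested were called, 30.7% higher and 32.1% lower, so a call on a single gene is not rare in these libraries. The choice of scaling matters for small changes: with total counts alone in place of TMM factors the median over all genes shifted by -0.21 on the log2 scale, and 18.6% of genes were called higher and 50.8% lower. Libraries held 31481779 to 37814723 counts in the knockout, against 39267487 to 40152687 in wild type. CRE1 stood somewhat apart, with a chi-square per degree of freedom of 8.09 and 7.63 against the other knockout libraries, where CRE2 and CRE3 gave 3.85 and the wild-type pairs 3.19 to 4.35. The summed level of 14 macrophage markers was 349 to 365 CPM in the knockout, against 3182 to 3201 CPM in wild type, and all 14 fell. The summed level of 13 chondrocyte markers was 3011 to 3140 CPM in the knockout, against 8532 to 8729 CPM in wild type, with 12 lower and 1 higher. The 10 markers of dividing cells all fell, with summed levels of 55.3 to 59.9 CPM in the knockout, against 353 to 363 CPM in wild type. Other lists moved otherwise. The summed level of 10 fibroblast and synovial lining markers was 29295 to 30319 CPM in the knockout, against 22685 to 22878 CPM in wild type, with 4 higher (Dcn by 1.68 and Prg4 by 1.64 on the log2 scale the most) and 4 lower of 9 tested. The summed level of 10 immediate-early genes was 1048 to 1085 CPM in the knockout, against 301 to 308 CPM in wild type. Of these genes 5 were higher and 4 lower (Fos, Fosb, Egr1 and Atf3). Much of the rise in the sum came from Ier3, at 469 CPM in the knockout, against 47.2 CPM in wild type. Of the markers tested, 2 rose and 1 fell of 5 for endothelium, 1 rose of 6 for skeletal muscle, and none of 2 was called for adipocytes or for erythroid cells. No marker of these lists was at 0 in all libraries. Fewer cells of a type and less RNA per cell cannot be told apart in bulk libraries, and the part of these shifts in the values below was not tested.

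Of the 10 genes, 1 fell, 3 rose and 6 were not called. The gene that fell was Mfn2 itself, the target of the knockout, and the 3 that rose were Mief1, Opa1 and Mff, by 1.28-fold, 1.13-fold and 1.10-fold. The other mitofusin Mfn1, the division GTPase Dnm1l, the adaptors Fis1 and Mief2 and the proteases Oma1 and Yme1l1 were not called. The median log2 fold change of the 10 genes was 0.015, beside -0.021 over all genes tested. Their share of calls was below the 62.7% of all genes. By the CPM of single libraries the groups did not overlap for the same 4 genes, 3 with the knockout above and 1 below, where 67.1% of all genes did not overlap, 32.3% with the knockout above and 34.8% below.

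**Figure D1:**
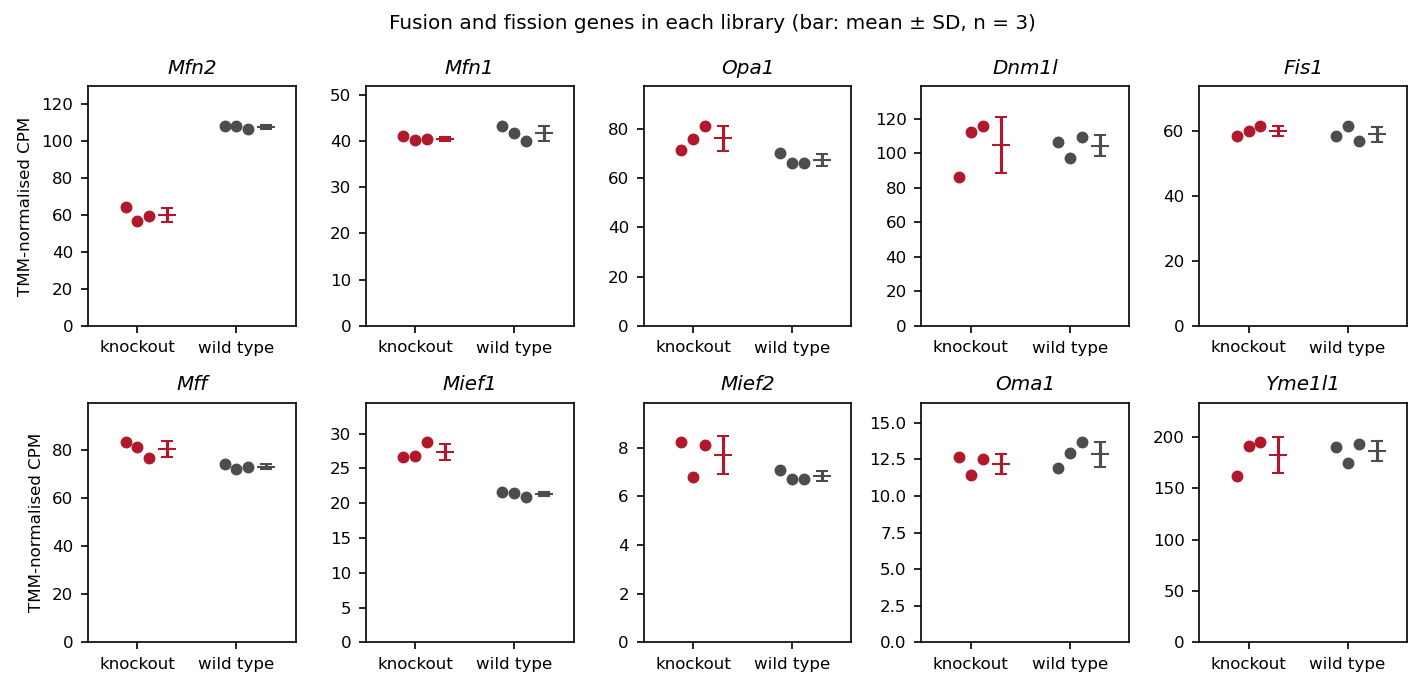
TMM-normalised CPM (y axis, from 0) of each of the 10 genes in the 3 knockout libraries (red, left) and the 3 wild-type libraries (grey, right), with the mean ± SD beside the points. Mfn2 separates widely, Mief1, Opa1 and Mff separate narrowly with the knockout above, and the groups overlap for the other 6 genes.

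Mfn2 stood at 64.0, 56.5 and 59.4 CPM in CRE1 to CRE3 in turn, against 108, 108 and 106 CPM in WT1 to WT3. Every knockout library lay below every wild-type library. The log2 change came to -0.84 (SE 0.046, 95% interval -0.94 to -0.74, adjusted p = 2.24e-10, edgeR). This is a level of 0.559 times the wild type, and 13.6% of all genes tested were called lower by as much or more. A count over the whole gene does not show which exons are present, so RNA without the deleted part and RNA of cells without the deletion are counted alike.

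Mfn1, the paralog that shares the fusion of outer membranes, had 41.0, 40.1 and 40.5 CPM in CRE1 to CRE3 in turn, against 43.2, 41.7 and 39.9 CPM in WT1 to WT3. The groups overlapped, since all 3 knockout values lay between those of WT3 and WT2. The log2 change came to -0.039 (SE 0.049, adjusted p = 0.506, edgeR), and its 95% interval ran from 0.906 to 1.05 times the wild type. With total counts alone Mfn1 was called lower (log2 fold change -0.25, adjusted p = 0.000323), and so it was with upper-quartile factors (-0.13, adjusted p = 0.0305). A rise of Mfn1 was called under none of the 19 alternative settings.

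The ratio of the 2 mitofusins within a library does not depend on the scaling between libraries. In FPKM, Mfn1 stood to Mfn2 as 0.813, 0.902 and 0.865 to 1 in CRE1 to CRE3 in turn, against 0.510, 0.491 and 0.477 in WT1 to WT3. The ratio was 1.74 times as high in the knockout, with no overlap (exact permutation test over the 6 libraries, two-sided p = 0.1, the smallest that 3 against 3 can give). Its denominator is the target of the knockout, so this test says little beyond the fall of Mfn2 given above. Mfn2 made up 53.8% ± 1.29 of the summed mitofusin FPKM in the knockout, against 67.0% ± 0.728 in wild type (SD, n = 3 each). Mfn2 was thus still the more abundant mitofusin RNA per length in every library.

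Added together, and with each library's FPKM divided by its TMM factor, the mitofusins reached 20.1, 18.6 and 19.2 FPKM in CRE1 to CRE3 in turn, against 28.1, 27.8 and 27.1 FPKM in WT1 to WT3. The sum was 0.696 times the wild type (exact permutation p = 0.1, the smallest possible). Mfn2 lost 8.18 FPKM. To restore the sum, Mfn1 would have had to stand at 17.3 FPKM, 1.89 times its wild-type mean, and it stood at 8.90 ± 0.094 FPKM in the knockout, against 9.14 ± 0.366 FPKM in wild type. These are RNA levels, and protein was not measured here.

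**Figure D2:**
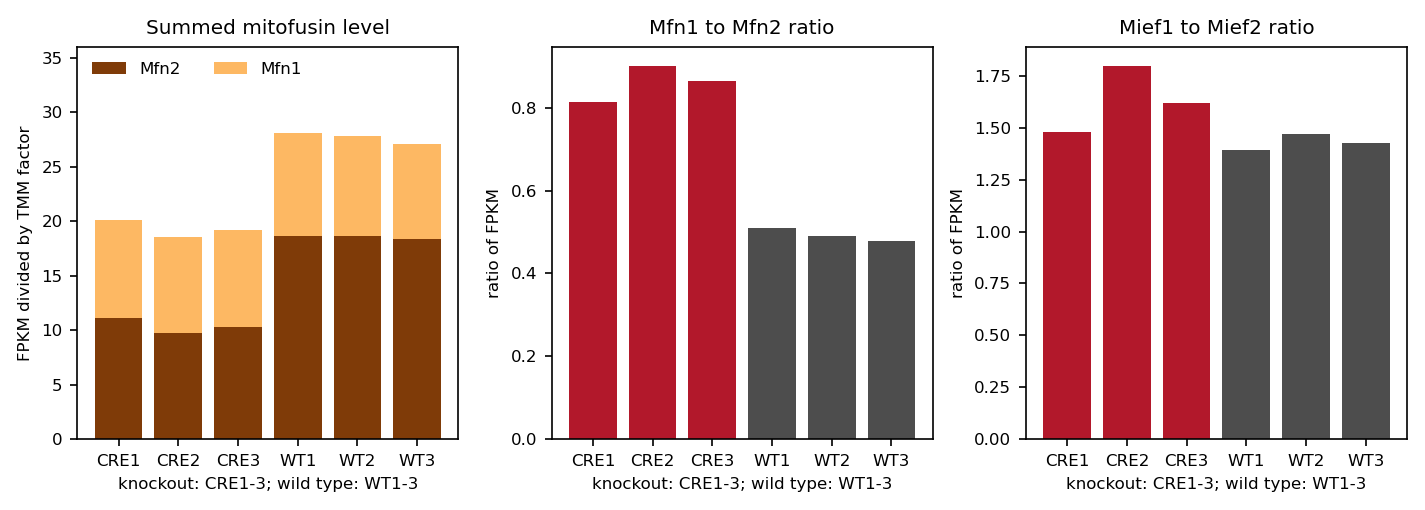
Left, Mfn2 (dark) and Mfn1 (light) stacked, in FPKM divided by the TMM factor, for each library; middle and right, the within-library FPKM ratio of Mfn1 to Mfn2 and of Mief1 to Mief2, knockout in red and wild type in grey, all axes from 0. The mitofusin sum is 18.6 to 20.1 in the knockout, against 27.1 to 28.1 in wild type, while the Mfn1 part is nearly level.

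For both mitofusins, the 250 bases before the outermost listed start are shown from RefSeq (build GRCm38.p6, the assembly before the one the submitters' notes name). Mfn2 is the target of the knockout, and a part of these bases in its change was not tested. Capitals mark motifs searched on both strands. The GC box is GGGCGG, found in 32.7% of 32851 windows of the same length. The box read as CCAAT was in 33.8% of them and the ETS core CCGGAAGT in 2.88%. The nuclear receptor site AAGGTCA was in 4.08%, the E-box CACGTG in 6.02%, the hypoxia core ACGTG, which overlaps the E-box, in 16.6%, and the ATF site TGACGTCA in 1.55%. The NRF1 motif (0.782%) and the YY1 motif (0.207%) were searched as well.
Mfn2 (chr4:147904910-147905159, minus strand): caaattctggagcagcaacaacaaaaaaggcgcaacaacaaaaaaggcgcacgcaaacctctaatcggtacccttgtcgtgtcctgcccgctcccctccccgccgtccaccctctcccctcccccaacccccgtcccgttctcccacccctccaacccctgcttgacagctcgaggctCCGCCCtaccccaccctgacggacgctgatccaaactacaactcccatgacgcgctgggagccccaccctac
Mfn1 (chr3:32529232-32529481, plus strand): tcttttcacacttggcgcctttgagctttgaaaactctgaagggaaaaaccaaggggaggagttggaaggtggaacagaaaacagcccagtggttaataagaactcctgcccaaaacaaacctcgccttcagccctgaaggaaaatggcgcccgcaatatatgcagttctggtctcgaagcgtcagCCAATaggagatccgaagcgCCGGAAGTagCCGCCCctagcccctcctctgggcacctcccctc
The Mfn2 window held 1 GC box, 72 bases before the start, and none of the other motifs. The Mfn1 window held a GC box at 34, an ETS core at 44 and a CCAAT box at 64 bases before the start. A match describes letters in the window and does not show that a factor binds there. Mfn2 has 3 starts in the table and Mfn1 has 1.

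Opa1, the inner-membrane fusion GTPase, had 71.2, 75.7 and 81.0 CPM in CRE1 to CRE3 in turn, against 69.9, 65.9 and 65.9 CPM in WT1 to WT3. The groups did not overlap, but CRE1 lay only just above WT1. The log2 change came to 0.18 (SE 0.050, adjusted p = 0.00630, edgeR), a level of 1.13 times the wild type with a 95% interval of 1.05 to 1.22. The call was lost with upper-quartile factors (0.085, adjusted p = 0.149), and with total counts alone the sign turned (-0.033, adjusted p = 0.576). On the deposited FPKM, which are scaled by total counts, the groups overlapped for Opa1.

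The Opa1 proteases did not pass the test. Yme1l1, an ATP-dependent protease of the inner membrane, had 162, 191 and 195 CPM in CRE1 to CRE3 in turn, against 191, 175 and 193 CPM in WT1 to WT3. CRE1 was the lowest of all 6 libraries and CRE3 the highest, and the log2 change came to -0.028 (SE 0.058, adjusted p = 0.695, edgeR). Oma1, a protease that cleaves Opa1 when the inner membrane loses its potential, had 12.6, 11.4 and 12.5 CPM in CRE1 to CRE3 in turn, against 11.9, 12.9 and 13.7 CPM in WT1 to WT3. Its log2 fold change was -0.077 (SE 0.086, 95% interval -0.26 to 0.11, adjusted p = 0.451). Under total counts alone Yme1l1 (-0.24, adjusted p = 0.00274) and Oma1 (-0.29, adjusted p = 0.00787) were called lower. Their FPKM ratio, free of that scaling, was 0.0238 ± 0.00338 in the knockout, against 0.0244 ± 0.00205 in wild type (SD, n = 3 each; exact permutation p = 0.9), and the sign of its difference changed when CRE2 or WT2 was left out.

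Among the division genes, Dnm1l varied most between knockout libraries. It stood at 86.1, 113 and 116 CPM in CRE1 to CRE3 in turn, against 107, 97.3 and 109 CPM in WT1 to WT3. CRE1 was the lowest of the 6 libraries while CRE2 and CRE3 were the highest, so the knockout mean of 105 ± 16.3 CPM and the wild-type mean of 104 ± 6.32 CPM nearly coincide. The log2 change came to 0.0062 (SE 0.082, 95% interval -0.17 to 0.18, adjusted p = 0.953, edgeR). Without CRE1 it was 0.13 and called (adjusted p = 0.00759), which makes 4 rises and 1 fall among the 10 genes instead of 3 and 1. With total counts alone Dnm1l was called lower (-0.20, adjusted p = 0.0463). The knockout coefficient of variation was 15.5% for Dnm1l and 9.82% for Yme1l1, and 1.05% for Mfn1 at the low end.

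Mief1, which encodes the DRP1 adaptor MiD51, had the largest rise of the 10 genes. It stood at 26.6, 26.8 and 28.7 CPM in CRE1 to CRE3 in turn, against 21.6, 21.5 and 20.9 CPM in WT1 to WT3. The groups were clearly apart, and the log2 change came to 0.36 (SE 0.059, 95% interval 0.23 to 0.48, adjusted p = 7.05e-05, edgeR), a level of 1.28 times the wild type. The size of this change lay at the 51.7th percentile of all genes tested. It was the one partner called higher under all 3 scalings given here, at 0.15 (adjusted p = 0.0348) with total counts alone and 0.27 (adjusted p = 0.000990) with upper-quartile factors.

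Mief2, which encodes the related adaptor MiD49, had 8.22, 6.81 and 8.11 CPM in CRE1 to CRE3 in turn, against 7.08, 6.70 and 6.71 CPM in WT1 to WT3. CRE2 fell among the wild-type values, and at 239 to 302 counts per library this was the least deeply counted of the 10 genes. The log2 change came to 0.17 (SE 0.111, 95% interval -0.066 to 0.41, adjusted p = 0.194, edgeR). The interval includes the change of Mief1, so a difference between the paralogs cannot be read from one call and one miss. Their FPKM ratio was 1.48, 1.80 and 1.62 in CRE1 to CRE3 in turn, against 1.39, 1.47 and 1.43 in WT1 to WT3, without overlap, though CRE1 was close to WT2 (exact permutation p = 0.1, the smallest possible).

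The same stretches are shown for this pair of adaptors, in the same build and with the same motifs in capitals.
Mief1 (chr15:80233830-80234079, plus strand): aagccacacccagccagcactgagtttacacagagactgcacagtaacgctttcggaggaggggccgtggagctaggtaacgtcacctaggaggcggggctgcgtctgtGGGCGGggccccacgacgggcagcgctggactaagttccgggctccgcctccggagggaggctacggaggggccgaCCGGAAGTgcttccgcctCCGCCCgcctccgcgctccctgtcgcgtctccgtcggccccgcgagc
Mief2 (chr11:60728148-60728397, plus strand): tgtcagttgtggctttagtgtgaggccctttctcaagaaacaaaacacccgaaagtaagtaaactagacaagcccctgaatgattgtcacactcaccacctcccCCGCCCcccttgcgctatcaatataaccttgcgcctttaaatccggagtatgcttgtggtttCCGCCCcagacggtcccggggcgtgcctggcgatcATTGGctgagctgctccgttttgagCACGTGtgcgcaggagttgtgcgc
The Mief1 window held GC boxes at 141 and 47 bases and an ETS core at 65 bases before the start, and 27 CpG dinucleotides, where the median window has 6 and the upper quartile is 16. The Mief2 window held 14 CpG dinucleotides, GC boxes at 146 and 84 bases, a CCAAT box at 49 bases and an E-box at 24 bases. The hypoxia core matched at the E-box on both strands.

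The tail-anchored adaptor Mff had 83.3, 81.4 and 77.0 CPM in CRE1 to CRE3 in turn, against 74.3, 72.2 and 73.0 CPM in WT1 to WT3. The groups did not overlap, and the log2 change came to 0.14 (SE 0.042, adjusted p = 0.01003, edgeR), a level of 1.10 times the wild type. The call was lost with upper-quartile factors (0.048, adjusted p = 0.340), and the sign turned with total counts alone (-0.071, adjusted p = 0.144). The deposited FPKM of Mff, scaled by total counts, were 35.2, 34.8 and 32.7 in CRE1 to CRE3 in turn. In WT1 to WT3 they were 36.4, 35.5 and 35.9, so on that scale every knockout library lay below every wild-type library. Fis1 had 58.5, 60.0 and 61.4 CPM in CRE1 to CRE3 in turn, against 58.4, 61.6 and 57.0 CPM in WT1 to WT3. The groups overlapped fully, with a log2 fold change of 0.023 (SE 0.045, 95% interval -0.074 to 0.12, adjusted p = 0.683). With total counts alone Fis1 was called lower (-0.19, adjusted p = 0.00209).

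**Figure D3:**
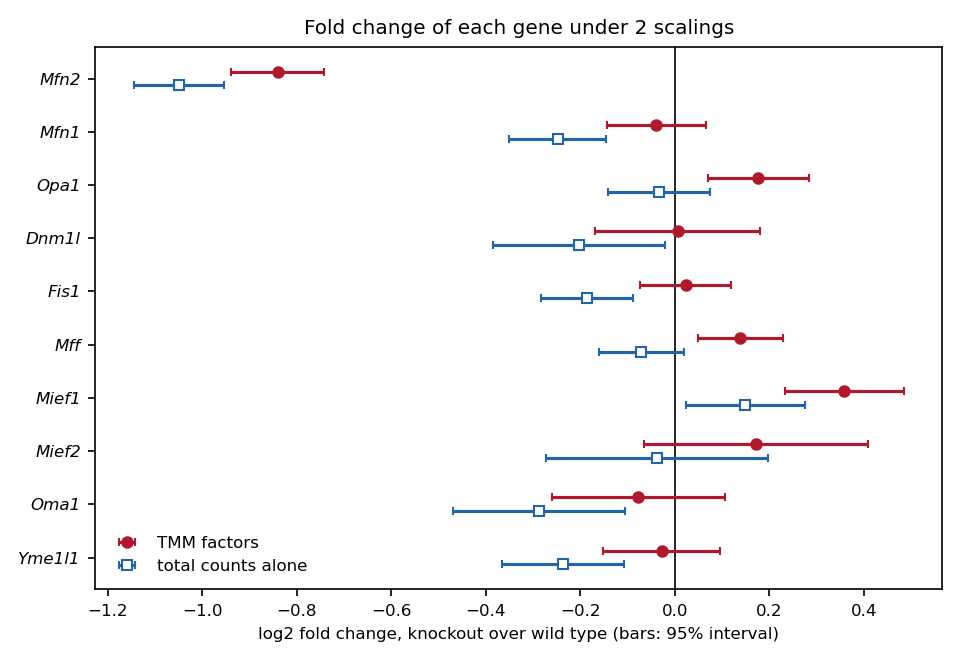
Log2 fold change of each gene, knockout over wild type (x axis), with 95% intervals, from edgeR with TMM factors (filled red) and with total counts alone (open blue). All 10 estimates move to the left by about the same amount under total counts, Mfn2 stays far below the rest under both, and Mief1 is the one partner whose interval lies above 0 under both.

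Mfn2 was also set against each partner in the same library, where the scaling between libraries cancels by construction. Within a library, the ratio of Mfn2 to each of the 9 partners was 0.436 to 0.588 times as high in the knockout as in the wild type, lowest against Mief1 and highest against Oma1, and for all 9 partners the groups did not overlap. Between any 2 of the 9 partners, over 36 pairs, the largest shift of a ratio was 1.35-fold, for Mief1 against Oma1. These ratios share the same 6 libraries and the same Mfn2 values and are given as a description.

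Per length, Fis1 was the most abundant of the 10 RNAs at 54.4 ± 1.33 FPKM in the knockout, against 53.5 ± 2.10 FPKM in wild type (FPKM divided by the TMM factor, SD, n = 3 each). Yme1l1, Mff and Dnm1l followed in both groups, at 39.9, 36.8 and 23.9 FPKM in the knockout, against 40.7, 33.4 and 23.8 FPKM in wild type. Yme1l1 and Mff overlapped in the knockout but not in wild type. Mfn2 came next in both groups, but its neighbours differed: in the knockout Mfn2 (10.4 FPKM) overlapped with Opa1 (10.1 FPKM), with Mfn1 below at 8.90 FPKM, while in the wild type Mfn2 (18.6 FPKM) stood clear of Mfn1 (9.14 FPKM), which overlapped with Opa1 (8.96 FPKM). Mief1 at 4.97 FPKM in the knockout, against 3.87 FPKM in wild type, Mief2 at 3.06 FPKM in the knockout, against 2.71 FPKM in wild type, and Oma1 at 0.943 FPKM in the knockout, against 0.993 FPKM in wild type, closed the order, and none of these overlapped with a neighbour. The place of Oma1 rests on the length the authors' FPKM imply, 12926 bases, where the longest transcript of GENCODE M21 has 1915 bases. On that transcript Oma1 would stand at 6.36 FPKM in the knockout, against 6.70 FPKM in wild type, above both Mief genes. For Mff the implied length of 2189 bases is shorter than the longest transcript of 3918 bases. On that transcript Mff would stand at 20.6 FPKM in the knockout, against 18.7 FPKM in wild type. It would then lie below Dnm1l, which on its own longest transcript has 26.4 FPKM in the knockout, against 26.3 FPKM in wild type. Such a length cancels in the fold change of a single gene between groups, but not in the summed mitofusin level or in the share of Mfn2 in it. The implied length of Mfn2 is 5778 bases, and its longest transcript has 4341 bases. On longest transcripts Mfn2 would stand at 13.8 FPKM in the knockout, against 24.7 FPKM in wild type, and Mfn1 at 8.88 against 9.12 FPKM. The share of Mfn2, and the Mfn1 level needed to restore the sum, would then be higher than given above. Opa1 would have 12.2 against 10.8 FPKM, so the order around Mfn2 also rests on these lengths.

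The genes around this machinery were counted from 8 lists of 93 tested genes, of which 48 rose and 15 fell with TMM factors, beside 30.7% higher and 32.1% lower over all genes. With total counts alone the lists had 23 rises and 41 falls, beside 18.6% and 50.8% over all genes, so the balance between rises and falls turned with the scaling. The 23 rises and 15 of the 41 falls were called in the same direction with TMM and with upper-quartile factors. Accessory fusion and fission factors had 11 rises and 3 falls among 15 tested (median log2 fold change 0.18), and 5 rises and 4 falls with total counts alone. Spire1, an actin nucleator whose mitochondrial form takes part in division, stood at 81.9 ± 0.462 CPM in the knockout, against 39.2 ± 0.762 CPM in wild type (log2 fold change 1.06, SE 0.042, adjusted p = 3.49e-12). Inf2, a formin that assembles actin where the endoplasmic reticulum meets mitochondria, rose by 0.50 (adjusted p = 2.63e-08), and Opa3 by 0.65 (adjusted p = 6.13e-08). Spire1, Inf2, Opa3 and the ubiquitin ligases Marchf5 and Mul1 were the rises kept with total counts alone. Marchf5 rose by 0.43 and Mul1 by 0.47 on the log2 scale. The 3 falls were Mtfr2 (-2.70), Gdap1 (-1.61) and Mtfp1 (-1.15), at means of 0.561, 1.87 and 0.635 CPM in the knockout, against 3.72, 5.75 and 1.43 CPM in wild type. The markers of dividing cells and of macrophages fell over the same libraries, and their part in these falls was not tested.

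Around Opa1, the list of proteases and scaffolds had 4 rises and no fall among 9 tested with TMM factors (median 0.070), but 3 rises and 4 falls with total counts alone, where Parl, Spg7, Stoml2 and Tmem11 were called lower. Afg3l2, a subunit of the matrix-facing AAA protease, rose by 0.89 (SE 0.043, adjusted p = 4.52e-11), and the prohibitins Phb (0.49) and Phb2 (0.38), which form a scaffold in the inner membrane, rose as well. These 3 were the rises kept with total counts alone. Of 11 genes of the MICOS complex and cristae, 6 rose and none fell with TMM factors (median 0.21), while 3 rose and 5 fell with total counts alone. The rises were led by Micos10 (0.51), Immt (0.46), which encodes the core subunit mitofilin, and Chchd6 (0.69), the 3 kept with total counts. Of 10 cardiolipin genes, 4 rose and 1 fell (median 0.088), and 3 rose and 5 fell with total counts alone. Over all genes, 30.7% were called higher and 32.1% lower with TMM factors, and 18.6% and 50.8% with total counts alone. Prelid1, a carrier of phosphatidic acid, rose by 0.75, the phosphatidylglycerophosphate synthase Pgs1 by 0.77 and the acyltransferase Lclat1 by 0.57. The fall was Tafazzin (-0.18, adjusted p = 0.0435, edgeR), for which the groups overlapped. It was also called lower with total counts alone (-0.39). Cardiolipin is the inner-membrane lipid that Opa1 binds.

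Among 16 kinases, phosphatases and other modifiers of DRP1, 8 rose and 5 fell (median 0.033), and 2 rose and 8 fell with total counts alone. The cell cycle kinase Cdk1, which phosphorylates DRP1 in mitosis, stood at 8.11 CPM in the knockout, against 28.3 CPM in wild type (log2 fold change -1.80, SE 0.072, adjusted p = 4.25e-12). It is also on the list of dividing-cell markers, all of which fell. Prkcd (-0.75) and Camk2d (-0.39) fell as well. The 2 rises kept with total counts alone were Ppp3r1 (0.30) and Senp5 (0.32). Of 10 genes of mitochondrial transport 4 rose and 2 fell (median 0.14), and 2 rose and 4 fell with total counts alone. One of the 2 falls was Mtss1 (-0.50), known as an actin and plasma membrane protein and not as a factor of mitochondrial transport, so its place on this list is doubtful. The other was Armcx3 (-0.32), a mitochondrial outer-membrane protein. The adaptor Trak2 (0.39) and the GTPase Rhot1 (0.33), which links mitochondria to motors and binds mitofusins, rose. Peroxisomes share Dnm1l, Mff and Fis1 for their division. Of 8 peroxisomal genes 4 rose and 1 fell (median 0.11), and 3 rose and 3 fell with total counts alone, with Pex14 (0.37) and Pex11a (0.47) among those higher under both. The fall was Pex3 (-0.24), which was also called lower with total counts alone (-0.45). Of 14 genes of general mitochondrial content, 7 rose and 3 fell (median 0.068), with the import pore Tomm40 (0.72) and Timm23 (0.37) higher and the chaperone Hspd1 (-0.23) lower. With total counts alone this last list gave 2 rises and 8 falls. Beside these lists stand the shares over all genes, 30.7% higher and 32.1% lower with TMM factors. With total counts alone the shares were 18.6% and 50.8%.

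**Figure D4:**
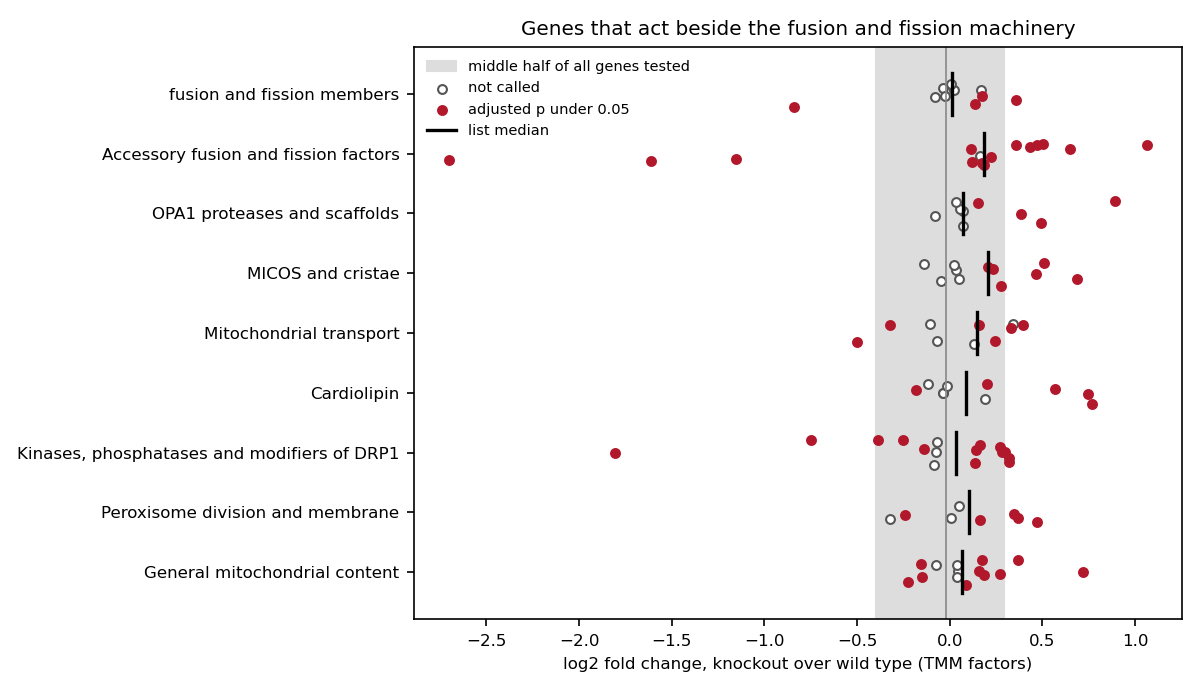
Log2 fold change, knockout over wild type with TMM factors (x axis), of the 10 fusion and fission genes and of each tested gene in the 8 surrounding lists; filled points passed an adjusted p of 0.05, open points did not, black bars are list medians and the grey band spans the lower to the upper quartile of all genes tested. All 9 list medians lie inside the grey band, and Mfn2 stands apart from the other members at -0.84.

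By the distance of centred log2 CPM over the 6 libraries, the 3 genes most like Mfn2 among 9219 with a mean of at least 10 CPM were Olfml2b, Flot1 and Gpr137b. Olfml2b stood at 57.8 ± 2.87 CPM in the knockout, against 103 ± 2.53 CPM in wild type. Flot1, which encodes flotillin 1, stood at 37.0 ± 1.85 CPM in the knockout, against 67.9 ± 0.67 CPM in wild type. Gpr137b stood at 19.2 ± 1.14 CPM in the knockout, against 34.1 ± 0.55 CPM in wild type. Likeness over 2 groups of 3 libraries reflects a similar fold and little else.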

How the data were processed

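Chondrocyte RNA was isolated by TRIzol, and libraries came from the VAHTS V6 RNA-seq kit, per the labels' protocols. Among tools, the submitters' processing notes list HISAT2, HTSeq and fastp, with GRCm39 as build; for versions, annotation and strand, the sources used here give nothing. The authors deposited whole-number read counts per gene and FPKM values. In the 13375 genes with at least 10 counts in every library, each deposited FPKM implies the same gene length in all 6 columns within 0.1%. Wild-type columns matched titles; the knockout columns show their group only.

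Counts were tested in R 4.3.3 by the quasi-likelihood method of edgeR 4.0.16 (two-sided, group only, filterByExpr at a minimum count of 10, TMM factors, Benjamini-Hochberg adjustment over 15028 genes). The SE is the log2 fold change divided by the square root of F. Ratios used exact permutation tests over libraries. Alternatives used DESeq2 1.42.0, limma 3.58.1 (voom; log2(FPKM + 1) and log2(FPKM + 0.1), mean FPKM at least 1, or unfiltered), other scalings and filters, a 1.2-fold threshold, a block on column numbers, removal of the 20 most abundant genes and each library left out.

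The 10 genes and the lists were chosen with earlier results of these data known. All members are named; from each list the 3 genes with the smallest p, all calls of lists with 5 or fewer and others chosen after their values were seen. A gene that this rule would name is not reported here. List names Phb1, Atp5f1a and Atp5f1b were matched to Phb, Atp5a1 and Atp5b. Read overlap with neighbours is possible for Mfn1 (Gnb4) and Yme1l1 (Mastl), whose RefSeq spans overlap.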

Additional observations from a re-analysis of the deposited data

How the results depend on the processing

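Mfn2 was called lower in all 19 alternatives (log2 fold change -1.05 to -0.78). Members called higher numbered 3 (4 without CRE1) and members called lower 1 under DESeq2, voom, DESeq2's size factors, both other filters on counts, removal of the 20 most abundant genes and each library left out. The scaling changed the partners. With upper-quartile factors there was 1 rise among the members and there were 2 falls, Mfn2 and Mfn1 (-0.13), with Opa1 (0.085) and Mff (0.048) not called, and 30 rises and 23 falls in the 8 lists. With total counts alone there was 1 rise and there were 6 falls (Mfn2, Mfn1 -0.25, Dnm1l -0.20, Fis1 -0.19, Oma1 -0.29, Yme1l1 -0.24), while Opa1 (-0.033) and Mff (-0.071) changed sign without a call, and 23 rises and 41 falls in the lists. On log2(FPKM + 1), with the total-count scaling of FPKM, there was 1 rise and there were 4 falls (Mfn2, Mfn1 -0.22, Fis1 -0.18, Yme1l1 -0.24), Opa1 (-0.031) and Mff (-0.069) were not called, with 22 and 38 in the lists. With log2(FPKM + 0.1) these were 1 and 4 (Mfn2, Mfn1 -0.24, Fis1 -0.19, Yme1l1 -0.24), Opa1 (-0.034) and Mff (-0.071) were not called, again with 22 and 38. Unfiltered log2(FPKM + 1) gave 0 rises and 3 falls (Mfn2, Mfn1 -0.22, Fis1 -0.18), with Opa1 (-0.031), Mff (-0.069) and Mief1 (0.12, adjusted p = 0.0609, limma) not called, and 22 and 35 in the lists. Against a 1.2-fold change 5856 genes were called instead of 9430, with 1 rise (Opa1 at 0.18 and Mff at 0.14 were lost) and 1 fall among the members and 19 and 7 in the lists. Oma1 was under the mean FPKM filter and has no filtered FPKM value. Leaving out each library in turn moved Dnm1l between -0.058 and 0.13, with 0.13 reached without CRE1 and called. On counts without a correction for gene length the summed mitofusin log2 difference was -0.57 instead of -0.52.

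The labels do not say whether libraries with the same column number are paired. Same-numbered deviations from the group means correlated at -0.0942, -0.0882 and 0.0326, and CRE1 correlated best with WT2. With 3 libraries per group these values cannot decide whether a pairing exists. With the number as a block the members gave 3 rises and 1 fall and 9094 genes were called. No member's call changed under the block (Mfn2 -0.84, Mief1 0.36, Opa1 0.18, Mff 0.14). Precision was limited most for Mief2, with 239 to 302 counts per library. The causes of the changes with scaling were not tested.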

Other observations

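Dnm1l and Yme1l1 were ordered alike across libraries: both were lowest in CRE1 among the knockout libraries and in WT2 among the wild-type libraries. Among the genes of the surrounding lists, chosen here after their values were seen, the kinesin heavy chain Kif5b had 197, 241 and 246 CPM in CRE1 to CRE3 in turn, against 216, 191 and 219 CPM in WT1 to WT3. The kinase Rock1 had 68.6, 89.2 and 92.1 CPM in the knockout libraries, against 91.5, 83.7 and 88.4 CPM in the wild-type libraries. These 4 genes share the low values in CRE1 and in WT2, and for each the 2 groups overlap. Whether a property of the transcripts or of the RNA goes with this order was not tested.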
